A study of Homo sapiens with 14 samples.

Results

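The genes described here are 10 genes of smooth muscle: ACTA2, TAGLN, CNN1, MYH11, MYL9, SMTN, LMOD1, CALD1 and ACTG2, which encode parts of the contractile apparatus, and MYOCD, which encodes their co-activator myocardin. They were taken by name from a count table of 25952 Ensembl genes, by a rule that lists them and uses no measured value. All 10 were in the table and all 10 passed the filter on low counts, which kept 19142 genes for testing. The cells were NT2, a human embryonal carcinoma line with the ability to form neural and other cell types, grown in medium with 10% fetal bovine serum. RNA sequencing covered 14 libraries in 7 groups of 2. The untreated day 0 group carried no differentiation agent. The RA groups were treated for 5, 10 or 21 days with all-trans retinoic acid at a final 10 µM, given to induce neurons. The BMP2 groups were treated for 5, 10 or 21 days with bone morphogenetic protein 2, given to induce muscle. BMP2 was tried first at 30 ng/ml and used later at 40 ng/ml, per the labels, which assign neither concentration to a library. Neither a DMSO control nor untreated cells kept beyond day 0 were analysed here, so agent and time in culture cannot be told apart in a difference from day 0.

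Smooth muscle cells contract when myosin II, switched on by phosphorylation of its light chain, pulls on actin filaments dressed with tropomyosin, calponin and caldesmon. Many genes of this apparatus carry a CArG box, the DNA element bound by serum response factor (SRF), and myocardin binds SRF and raises its activity on those genes. ACTA2, TAGLN and CNN1 also appear in other mesenchymal cells and in embryonic heart muscle, while MYH11, the smooth muscle myosin heavy chain, is the member most restricted to smooth muscle. Myocardin itself is made in both cardiac and smooth muscle.

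Promoter sequence was available for 6 of the 10 members, in 13 windows from RefSeq (GRCh38.p14), each of 300 bases running from 250 before a transcription start to 50 after it. TAGLN, MYOCD, MYH11 and MYL9 had none. Both strands were searched for a CArG box, and separately for a CArG box that allows at most 1 G or C in its core, a form that includes every match of the first. The 4 windows below are shown because they hold such boxes or, for LMOD1, because that gene rose in every treated group. Capitals mark the CArG matches and the letters GGAATG, a motif of TEAD factors searched on both strands. ACTA2 comes from chr10:88952724-88953023 (minus strand), ACTG2 from chr2:73892758-73893057 (plus), SMTN from chr22:31084746-31085045 (plus) and LMOD1 from chr1:201946499-201946798 (minus).
ACTA2: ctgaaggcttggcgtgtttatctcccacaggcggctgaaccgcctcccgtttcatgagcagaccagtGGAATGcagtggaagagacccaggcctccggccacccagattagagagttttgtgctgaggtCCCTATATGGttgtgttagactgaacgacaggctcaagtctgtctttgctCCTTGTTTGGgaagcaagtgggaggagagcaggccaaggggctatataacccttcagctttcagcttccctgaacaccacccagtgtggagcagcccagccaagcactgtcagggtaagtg
ACTG2: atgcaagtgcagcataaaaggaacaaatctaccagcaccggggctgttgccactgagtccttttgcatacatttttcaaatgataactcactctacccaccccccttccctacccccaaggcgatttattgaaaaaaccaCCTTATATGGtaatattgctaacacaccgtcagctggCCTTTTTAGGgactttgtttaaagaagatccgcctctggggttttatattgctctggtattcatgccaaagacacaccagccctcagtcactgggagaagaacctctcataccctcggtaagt
SMTN: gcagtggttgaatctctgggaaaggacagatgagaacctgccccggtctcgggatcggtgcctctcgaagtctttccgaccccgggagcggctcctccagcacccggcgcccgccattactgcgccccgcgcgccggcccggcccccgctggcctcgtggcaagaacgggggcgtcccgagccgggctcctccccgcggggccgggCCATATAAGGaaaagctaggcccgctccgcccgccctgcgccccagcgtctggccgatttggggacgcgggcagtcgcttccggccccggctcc
LMOD1: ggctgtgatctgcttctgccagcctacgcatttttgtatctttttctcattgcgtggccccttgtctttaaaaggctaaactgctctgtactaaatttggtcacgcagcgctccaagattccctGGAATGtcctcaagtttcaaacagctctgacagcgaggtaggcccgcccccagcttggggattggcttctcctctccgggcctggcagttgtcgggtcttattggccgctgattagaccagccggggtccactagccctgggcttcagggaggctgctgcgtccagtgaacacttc

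ACTG2 held a pair of CArG boxes, CCTTATATGG and CCTTTTTAGG, starting 110 and 73 bases before the start, and SMTN held CCATATAAGG 44 bases before it. A CArG box stood in 2 of the 13 member windows, against 1.29% of 35116 RefSeq windows of the same length. The ACTA2 window had CCCTATATGG and CCTTGTTTGG, each with 1 G or C in the core, at 121 and 71 bases before the start. The form with at most 1 G or C in the core stood in 4 of the 13 windows, against 8.13% of all windows, and these include a CALD1 window with CCTAAAGAGG. GGAATG stood in 5 of 13 member windows, against 14% of all, among them ACTA2 and LMOD1. The CNN1 window and the LMOD1 window had neither form of the CArG box. These matches describe letters in short windows and were not tested as binding sites. The members with boxes did not move alike, as the levels of ACTA2, ACTG2 and SMTN below show.

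Total counts ran from 45773278 to 75754396 per library. Replicates of 6 groups correlated across genes at r between 0.964 and 0.99 on the log2 CPM scale, and those of BMP2 day 10 at 0.918, where genes are not independent replicates. Of the BMP2 day 10 pair, replicate 1 had its nearest neighbour in replicate 2 of day 5 (r = 0.981), and replicate 2 in replicate 2 of day 21 (r = 0.966), so that group is given per library and results are also given without it where they changed. Neighbouring genes can share reads with some members, since the sources used here do not say whether counting used strand. In GENCODE release 29, 72.6% of the ACTA2 span lies in other genes, chiefly STAMBPL1, and MYL9 lies wholly under an antisense gene. The overlap is 41.8% for MYOCD, with antisense genes, and 20.7% for MYH11, chiefly with NDE1. Over exon bases alone the share in other genes is 100% for ACTA2 and MYL9, 67.7% for LMOD1, under an antisense gene, 67.6% for MYOCD and 49.4% for MYH11. TAGLN has 11.4% and SMTN 4.3%, and CNN1, CALD1 and ACTG2 have 0%. These shares take the whole span of the other gene, introns included, so they do not measure how many reads are shared. The antisense genes over MYL9, MYOCD and LMOD1 are absent from the count table. The values of the 7 genes with an overlap are uncertain to an extent that was not measured. In bulk RNA, fewer cells of a type and less RNA per cell cannot be told apart.

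Levels are given as CPM, counts scaled to the effective library size, for replicates 1 and 2 in that order. MYOCD (ENSG00000141052, chromosome 17) was at 0.183 and 0.821 CPM in untreated cells. MYOCD in RA was at 1.14 and 0.788 CPM on day 5, 0.152 and 0.164 on day 10, and 0.299 and 0.916 on day 21. MYOCD in BMP2 was at 91.9 and 61.7 CPM on day 5, 57.4 and 27.8 on day 10, and 8.85 and 18 on day 21. Every BMP2 library lay above every untreated and RA library. Within BMP2 the days did not overlap and their order was day 5, day 10, day 21 from high to low. The gap between days 5 and 10 was narrow, at 61.7 and 57.4 CPM. Day 10 was not tested against either other BMP2 day.

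ACTA2 (ENSG00000107796, chromosome 10), the smooth muscle alpha actin, was at 0.75 and 1 CPM in untreated cells. ACTA2 in RA was at 5.82 and 1.88 CPM on day 5, 5.81 and 5.5 on day 10, and 5.86 and 7.15 on day 21. ACTA2 in BMP2 was at 431 and 94.6 CPM on day 5, 115 and 319 on day 10, and 151 and 106 on day 21. The BMP2 libraries did not overlap the RA libraries, and the RA libraries did not overlap the untreated ones. The 3 BMP2 days overlapped, so no order among them can be read.

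ACTG2 (ENSG00000163017, chromosome 2), the gamma actin of visceral smooth muscle, was at 0.0406 and 1.5 CPM in untreated cells. ACTG2 in RA was at 0.814 and 0.204 CPM on day 5, 4.21 and 8.29 on day 10, and 0.239 and 0.62 on day 21. ACTG2 in BMP2 was at 4.83 and 1.73 CPM on day 5, 1.77 and 21.9 on day 10, and 5.91 and 2.64 on day 21. The untreated libraries held 2 and 108 counts, and 1 BMP2 day 10 library stood far above the other. Both RA day 10 libraries were above every other RA library.

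TAGLN (ENSG00000149591, chromosome 11) encodes transgelin, an actin-binding protein, and was at 29.3 and 84 CPM in untreated cells. TAGLN in RA was at 241 and 33.9 CPM on day 5, 96 and 275 on day 10, and 74.9 and 111 on day 21. TAGLN in BMP2 was at 715 and 384 CPM on day 5, 449 and 884 on day 10, and 316 and 202 on day 21. BMP2 days 5 and 10 were above all RA and untreated libraries, whereas BMP2 day 21 overlapped the RA libraries of days 5 and 10. Replicates of RA days 5 and 10 were far apart.

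CNN1 (ENSG00000130176, chromosome 19) encodes calponin, which binds actin and slows myosin, and was at 3.61 and 2.07 CPM in untreated cells. CNN1 in RA was at 7.2 and 2.38 CPM on day 5, 1.26 and 2.79 on day 10, and 0.867 and 1.1 on day 21. CNN1 in BMP2 was at 24.8 and 11 CPM on day 5, 13 and 9.16 on day 10, and 8.58 and 10.9 on day 21. Each BMP2 library exceeded each RA and untreated library, and RA day 21 was below every other group.

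CALD1 (ENSG00000122786, chromosome 7) encodes caldesmon, whose shorter forms are made in many cells, and was at 256 and 280 CPM in untreated cells. CALD1 in RA was at 605 and 204 CPM on day 5, 217 and 637 on day 10, and 403 and 599 on day 21. CALD1 in BMP2 was at 2285 and 1342 CPM on day 5, 1148 and 2471 on day 10, and 1186 and 2205 on day 21. The BMP2 libraries all lay above the others and their days overlapped. The counts do not separate the smooth muscle form of caldesmon from the short forms.

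MYH11 (ENSG00000133392, chromosome 16) was at 1.46 and 0.974 CPM in untreated cells. MYH11 in RA was at 2.66 and 1.44 CPM on day 5, 2.19 and 2.22 on day 10, and 1.55 and 1.44 on day 21. MYH11 in BMP2 was at 15.3 and 8.02 CPM on day 5, 6.42 and 1.52 on day 10, and 0.78 and 0.693 on day 21. BMP2 day 5 was the highest group and BMP2 day 21 the lowest, below the untreated libraries. BMP2 day 10 was split, with replicate 1 near day 5 and replicate 2 within the range of RA.

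MYL9 (ENSG00000101335, chromosome 20) encodes the regulatory myosin light chain whose phosphorylation starts contraction, and was at 11.2 and 17.2 CPM in untreated cells. MYL9 in RA was at 135 and 34.1 CPM on day 5, 57.8 and 107 on day 10, and 65.1 and 82.5 on day 21. MYL9 in BMP2 was at 414 and 202 CPM on day 5, 245 and 280 on day 10, and 116 and 102 on day 21. All treated libraries were above the untreated ones. BMP2 days 5 and 10 were above all RA libraries, and BMP2 day 21 overlapped RA days 5 and 10.

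SMTN (ENSG00000183963, chromosome 22) encodes smoothelin, a protein of actin bundles in contractile smooth muscle, and was at 8.9 and 10 CPM in untreated cells. SMTN in RA was at 24.2 and 14 CPM on day 5, 20.3 and 21.2 on day 10, and 11.4 and 13.7 on day 21. SMTN in BMP2 was at 27.9 and 27 CPM on day 5, 31.1 and 23.1 on day 10, and 13.7 and 14.1 on day 21. The range was narrow, and in both treatments day 21 was below day 10.

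LMOD1 (ENSG00000163431, chromosome 1) encodes leiomodin, which starts new actin filaments, and was nearly silent in untreated cells, with 6 and 2 counts. These counts gave 0.122 CPM (95% Poisson interval 0.0447 to 0.265) and 0.0278 CPM (0.00337 to 0.101), where intervals cover counting error only and are too narrow because both reads of a pair appear to be counted. LMOD1 in RA was at 31.2 and 12.1 CPM on day 5, 38.6 and 25.1 on day 10, and 21.6 and 31.5 on day 21. LMOD1 in BMP2 was at 29.6 and 11.6 CPM on day 5, 15.4 and 29.5 on day 10, and 40.2 and 13.6 on day 21. All treated libraries stood far above the untreated ones, and RA and BMP2 overlapped on every day.

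**Figure D1:**
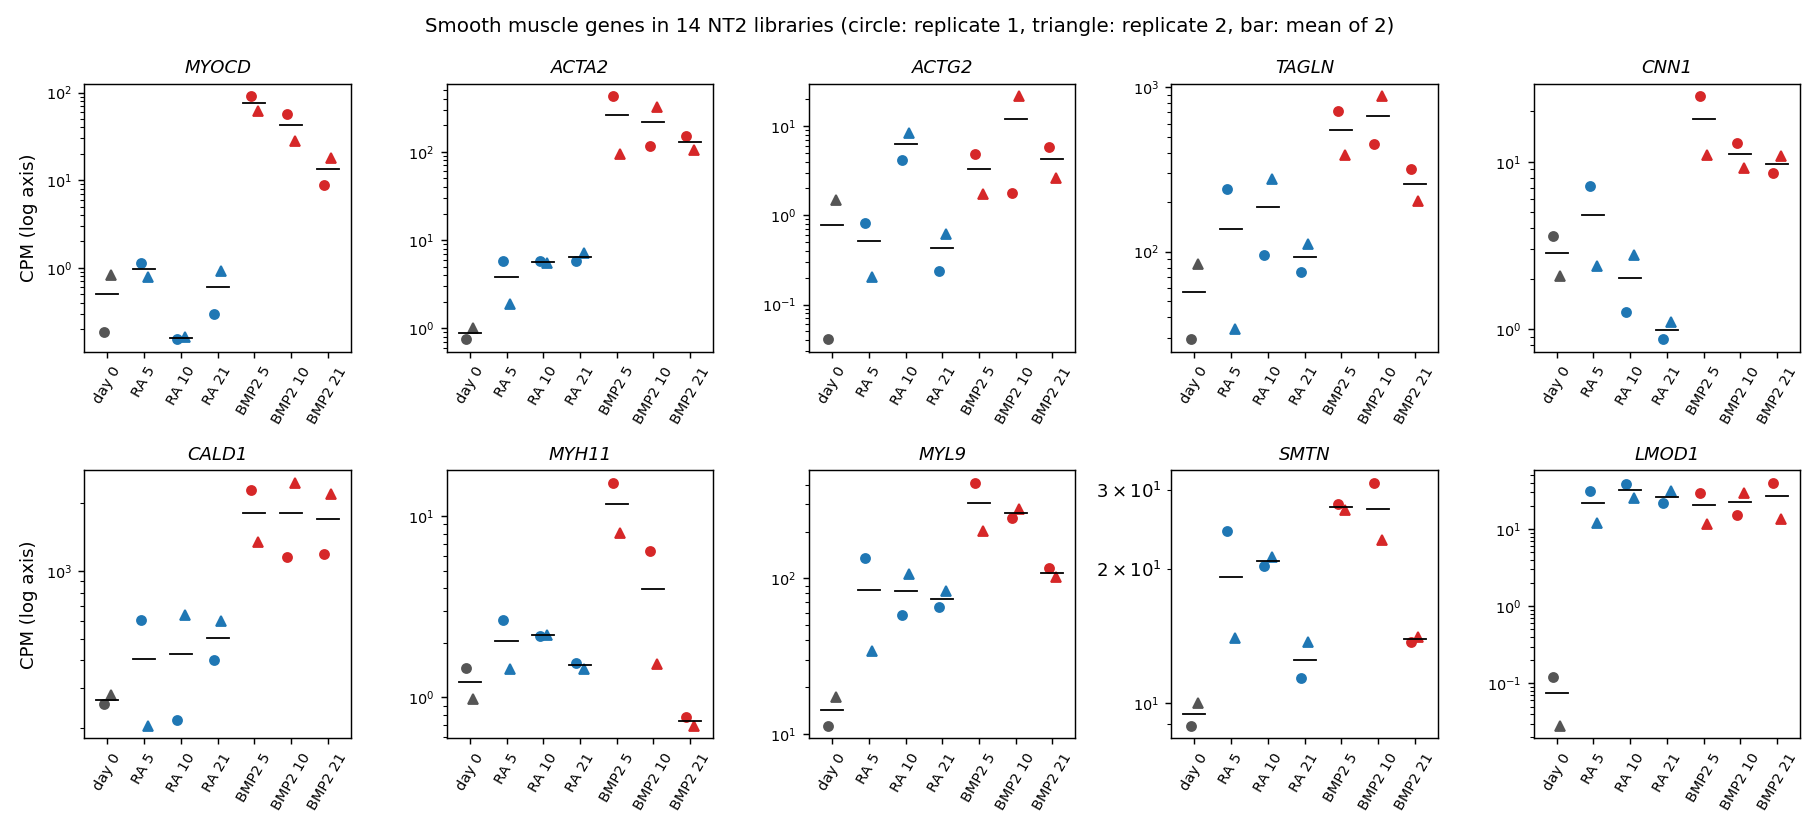
CPM of each gene (log axis) in the 14 libraries, with untreated day 0 in grey, RA in blue and BMP2 in red; circles are replicate 1, triangles replicate 2, and bars the mean of 2. For MYOCD and ACTA2 every BMP2 library is above every RA library, whereas LMOD1 is alike in both treatments and MYH11 is high on BMP2 day 5 and low on day 21.

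Compared per length, the members kept a steep order. The authors' RPKM divides by the whole gene span or, for MYL9, by a somewhat shorter length. On that scale TAGLN ranked first and MYL9 second in all 7 groups, at 95.6 and 35 RPKM on BMP2 day 5. Divided by exon length instead, CALD1 ranked first in 6 groups and TAGLN in RA day 10, with CALD1 at 184 and TAGLN at 140 CPM per kb of exon on BMP2 day 5. ACTA2 held rank 4 on BMP2 day 5 on either scale, at 4.36 RPKM. MYH11 was last in all 3 BMP2 groups on either scale, at 0.0721 RPKM on BMP2 day 5 and 0.0044 on day 21. The order above MYH11 depended on the length used. On BMP2 day 10, SMTN held rank 6 by RPKM and rank 9 by exon length, and on BMP2 day 21, MYOCD held rank 9 by RPKM and rank 7 by exon length.

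RA against untreated cells gives the members' values under the neuron-inducing treatment. LMOD1 rose on all 3 days, MYL9 rose on all 3 days, SMTN rose on days 5 and 10, and ACTA2 rose on days 10 and 21, while MYOCD did not pass the test on any day. LMOD1 changed by 8.26 ± 1.01 (SE), 8.82 ± 1.02 and 8.56 ± 1.01 on the log2 scale on days 5, 10 and 21 (edgeR, adjusted p = 0.0014, 0.00056 and 0.00022). MYL9 had log2 fold changes of 2.57 ± 0.59, 2.54 ± 0.59 and 2.38 ± 0.59 (adjusted p = 0.028, 0.013 and 0.0088). ACTA2 rose by 2.68 ± 0.78 on day 10 and 2.88 ± 0.78 on day 21 (adjusted p = 0.033 and 0.014) from its very low base, and stood at 2.11 ± 0.77 on day 5 without passing (adjusted p = 0.12).

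SMTN rose by 1.01 ± 0.26 and 1.13 ± 0.26 on RA days 5 and 10 (edgeR, adjusted p = 0.041 and 0.013). MYOCD had log2 fold changes of 0.89 ± 0.70, -1.69 ± 0.81 and 0.24 ± 0.71 (adjusted p = 0.48, 0.15 and 0.81). MYH11, TAGLN, CALD1, CNN1 and ACTG2 did not pass on any RA day. So 3, 4 and 3 of the 10 members were higher and 0 lower on RA days 5, 10 and 21, where 5.59%, 12.9% and 23.4% of all tested genes were called higher and 2.72%, 11.1% and 21.1% lower. The members' median log2 fold change was 0.95, 1.42 and 0.56, beside -0.00, 0.06 and 0.10 over all genes. By day 21 the share of members called was close to the background. With limma on RPKM, ACTA2 lost its RA calls (adjusted p = 0.2 to 0.86), SMTN lost its day 5 call (adjusted p = 0.12 and 0.065), and LMOD1 and MYL9 lost theirs on day 5 on log2(RPKM + 1) alone (adjusted p = 0.15 and 0.052). CNN1 was called lower on RA day 21 with DESeq2 (-1.58, adjusted p = 0.021), in an edgeR fit of the 4 libraries compared (-1.57, adjusted p = 0.012), and without either RA day 5 library (-1.52). DESeq2 also called ACTA2 on RA day 5 (2.09, adjusted p = 0.021) and ACTG2 on RA day 10 (2.99, adjusted p = 0.05), and the fit of 4 libraries called CALD1 on RA day 21 (0.85, adjusted p = 0.0054).

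LMOD1 alone was called on RA day 5 without either untreated library or without RA day 5 replicate 1 and on RA day 10 without either untreated library. It was also the single call on RA day 21 without untreated replicate 1, and its log2 fold change moved between 7.42 and 10.05 over all libraries left out. On RA day 5, MYL9 had 1.26 without replicate 1 (adjusted p = 0.22), and SMTN lost its call without any 1 library of RA day 10, RA day 21, BMP2 day 5 or BMP2 day 21 as well. On RA day 10, ACTA2 and SMTN lost their calls without replicate 1 of that group, and ACTA2 and MYL9 without replicate 2. On RA day 21, ACTA2 lost its call without untreated replicate 2 or RA day 21 replicate 2 (adjusted p = 0.067 and 0.052).

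**Figure D2:**
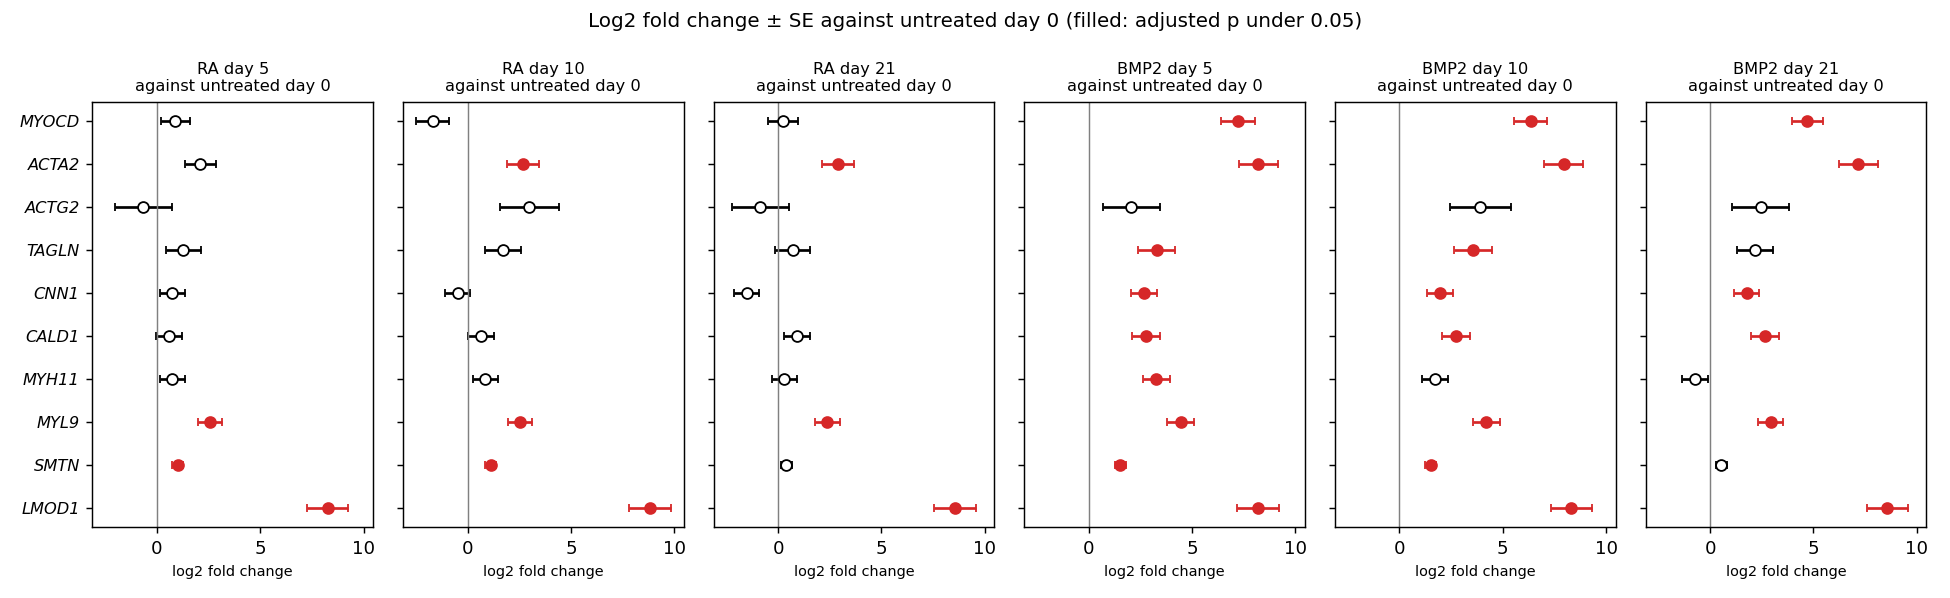
Log2 fold change ± SE of each gene against untreated day 0 in the 6 treated groups (edgeR, 14 libraries); filled points have an adjusted p under 0.05. LMOD1 lies above 8 in every panel, and MYOCD lies near 0 or below in RA days 10 and 21 and between 4.69 and 7.21 in BMP2.

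BMP2 against untreated cells addresses the muscle-inducing treatment. MYOCD and ACTA2 rose most among the members other than LMOD1 and remained called on all 3 days. On day 5, 9 of the 10 members rose, all but ACTG2. On day 10, 8 rose, without ACTG2 and MYH11, and on day 21, 6 rose, namely LMOD1, ACTA2, MYOCD, MYL9, CALD1 and CNN1. No member fell on any day, and of all tested genes 15.9%, 19.8% and 25% were called higher and 13.4%, 16.4% and 22.1% lower on days 5, 10 and 21. The members' median log2 fold change was 3.27, 3.73 and 2.55, beside 0.00, 0.05 and 0.04 over all genes.

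MYOCD rose by 7.21 ± 0.83, 6.36 ± 0.80 and 4.69 ± 0.75 on the log2 scale (edgeR, adjusted p = 0.00044, 0.00054 and 0.00079). ACTA2 rose by 8.21 ± 0.96, 7.94 ± 0.95 and 7.18 ± 0.92 (adjusted p = 0.00045, 0.00043 and 0.00026), or 297-fold, 245-fold and 145-fold. LMOD1 rose by 8.19 ± 1.00, 8.32 ± 1.01 and 8.58 ± 1.01, about as in RA. MYL9 rose by 4.44 ± 0.64, 4.21 ± 0.64 and 2.94 ± 0.60. The co-activator, the actin and the light chain all stood above untreated cells at each time.

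CALD1 rose by 2.76 ± 0.67, 2.75 ± 0.67 and 2.66 ± 0.66 (edgeR, adjusted p = 0.013, 0.01 and 0.0083). CNN1 rose by 2.66 ± 0.62, 1.96 ± 0.61 and 1.78 ± 0.61 (adjusted p = 0.011, 0.03 and 0.035). TAGLN rose by 3.28 ± 0.91 and 3.56 ± 0.92 on days 5 and 10 and was at 2.19 ± 0.87 on day 21 (adjusted p = 0.062). These 3 genes encode proteins that decorate the actin filament.

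SMTN rose by 1.53 ± 0.26 and 1.52 ± 0.26 on days 5 and 10 and was at 0.55 ± 0.26 on day 21 (edgeR, adjusted p = 0.1). MYH11 rose by 3.26 ± 0.65 on day 5 (adjusted p = 0.0055), was at 1.71 ± 0.62 on day 10 (adjusted p = 0.054) and at -0.72 ± 0.62 on day 21 (adjusted p = 0.37). ACTG2 had 2.06 ± 1.38, 3.91 ± 1.48 and 2.44 ± 1.40 (adjusted p = 0.29, 0.062 and 0.18). Its untreated libraries held 2 and 108 counts.

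MYOCD on BMP2 day 5 was at 8.70 without untreated replicate 2 and 6.54 without replicate 1, and ACTA2 at 6.74 without BMP2 day 5 replicate 1, all still called. Without untreated replicate 2 the day 5 count fell to 5, with TAGLN, CNN1, MYH11 and CALD1 lost. Without untreated replicate 1 the day 10 count fell to 5, with TAGLN, CNN1 and CALD1 lost. TAGLN, CNN1 and CALD1 also lost the day 5 call without BMP2 day 5 replicate 1. CALD1 lost every BMP2 call without either untreated library, TAGLN the day 5 call without either, and CNN1 those of days 10 and 21 without either. CNN1 lost the day 10 call without BMP2 day 10 replicate 1, and the day 21 call without either BMP2 day 21 library (adjusted p = 0.065 and 0.12) or either RA day 21 library (adjusted p = 0.05). MYH11 gained the day 10 call without BMP2 day 10 replicate 2 (log2 fold change 2.40, adjusted p = 0.0052) and with the replicate number as a block (1.56, adjusted p = 0.042), and was at 0.32 without BMP2 day 10 replicate 1 (adjusted p = 0.66). ACTG2 gained it without BMP2 day 10 replicate 1 (4.79, adjusted p = 0.015) or untreated replicate 2 (8.11, adjusted p = 0.034), and was at 1.17 without BMP2 day 10 replicate 2 (adjusted p = 0.55). Its day 21 value was called without untreated replicate 2 (6.64, adjusted p = 0.04). TAGLN gained the day 21 call without either RA day 5 library (adjusted p = 0.023 and 0.022).

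By test, MYOCD lost its day 21 call with limma on log2(RPKM + 1) (0.16, adjusted p = 0.25) and log2(RPKM + 0.1) (1.05, adjusted p = 0.062), at an RPKM of 0.12 on that day. LMOD1 lost those of days 5 and 10 with the first offset (adjusted p = 0.1 and 0.069). DESeq2 called MYH11 and ACTG2 on day 10 (adjusted p = 0.018 and 0.0053) and TAGLN on day 21 (adjusted p = 0.02). A fit of the 4 libraries compared lost TAGLN, CNN1 and SMTN on day 10 (adjusted p = 0.054, 0.073 and 0.055) and gained TAGLN on day 21 (2.15, adjusted p = 0.0085). With no filter on low counts, MYH11 and ACTG2 were called on day 10 (adjusted p = 0.046 and 0.029) and TAGLN on day 21 (adjusted p = 0.027). TAGLN on day 21 was also called with limma on log2(RPKM + 0.1) (adjusted p = 0.049), and MYH11 on day 10 among genes with at least 1 CPM in 2 libraries (adjusted p = 0.049).

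BMP2 against RA on the same day tests the difference between the treatments. ACTA2 and MYOCD were higher in BMP2 on days 5, 10 and 21, and CNN1 was higher on days 10 and 21. MYH11 was higher on day 5. LMOD1, SMTN, TAGLN, MYL9, CALD1 and ACTG2 did not pass the test of the difference on any day. So 3 of 10 members were higher and 0 lower on each day, where 6.25%, 5.73% and 6.07% of all tested genes were called higher and 5.97%, 5.11% and 5.99% lower on days 5, 10 and 21. The members' median difference was 2.08, 1.76 and 1.62 on the log2 scale, beside 0.00, 0.00 and -0.02 over all genes.

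MYOCD was higher in BMP2 by 6.32 ± 0.80, 8.05 ± 0.89 and 4.45 ± 0.74 on the log2 scale on days 5, 10 and 21 (edgeR, adjusted p = 0.002, 0.0015 and 0.0066), with both BMP2 libraries above both RA libraries each time. ACTA2 was higher by 6.10 ± 0.86, 5.26 ± 0.83 and 4.30 ± 0.79 (adjusted p = 0.0031, 0.0056 and 0.0096). CNN1 was higher by 2.45 ± 0.62 on day 10 and 3.30 ± 0.65 on day 21 (adjusted p = 0.034 and 0.012) and stood at 1.91 ± 0.61 on day 5 (adjusted p = 0.068). CNN1 was at 8.58 CPM or more in all BMP2 libraries and at 0.867 to 7.2 CPM in RA.

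MYH11 was higher in BMP2 by 2.51 ± 0.63 on day 5 (edgeR, adjusted p = 0.031) and stood at 0.85 ± 0.60 and -1.02 ± 0.62 on days 10 and 21 (adjusted p = 0.4 and 0.3). LMOD1 differed by -0.07 ± 0.66, -0.51 ± 0.66 and 0.02 ± 0.66 (adjusted p = 0.97, 0.67 and 0.99), values smaller than their errors. SMTN differed by 0.52 ± 0.26, 0.38 ± 0.26 and 0.15 ± 0.26. An error of 0.66 leaves room for a sizeable difference in LMOD1, which these libraries could not resolve. CALD1 had 2.17 ± 0.65, 2.08 ± 0.65 and 1.76 ± 0.64 (adjusted p = 0.057, 0.067 and 0.1), and MYL9, TAGLN and ACTG2 also had positive values on each day.

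On day 21, 0 members passed without RA day 21 replicate 1, and MYOCD alone passed without RA day 21 replicate 2, with log2 differences of 3.88 and 5.50 for MYOCD. MYH11 on day 5 lost its call without either RA day 5 library, either RA day 21 library or BMP2 day 5 replicate 1 (adjusted p = 0.055 to 0.23). CALD1, CNN1 and MYL9 were called on day 5 without RA day 5 replicate 1 or either BMP2 day 10 library, which raised the count to 6, and TAGLN without RA day 5 replicate 1. CALD1 was called on day 5 without either RA day 10 library too. On day 10, ACTA2 lost its call without RA day 10 replicate 2 (5.23, adjusted p = 0.05), where MYOCD alone passed, CALD1 gained a call without BMP2 day 10 replicate 1 (2.53, adjusted p = 0.024) and MYL9 without either RA day 5 library (adjusted p = 0.033). CNN1 lost its day 10 call without either RA day 10 library, either RA day 21 library or BMP2 day 21 replicate 1, and its day 21 call without either RA day 21 library or BMP2 day 21 replicate 2. By test, DESeq2 also called CALD1 on all 3 days (adjusted p = 0.0042, 0.0063 and 0.023), MYL9 on days 5 and 10 (adjusted p = 0.008 and 0.02), CNN1 on day 5 (adjusted p = 0.0099) and ACTG2 on day 21 (adjusted p = 0.036). A fit of the 4 libraries compared gave 0 calls on day 10, with adjusted p = 0.071 for MYOCD, 0.14 for ACTA2 and 0.23 for CNN1. MYOCD lost its day 21 call with limma on either RPKM scale (0.15 and 1.03, adjusted p = 0.34 and 0.12). ACTA2 on day 5 was at 4.63 without BMP2 day 5 replicate 1 and 7.12 without RA day 5 replicate 1, called in both.

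**Figure D3:**
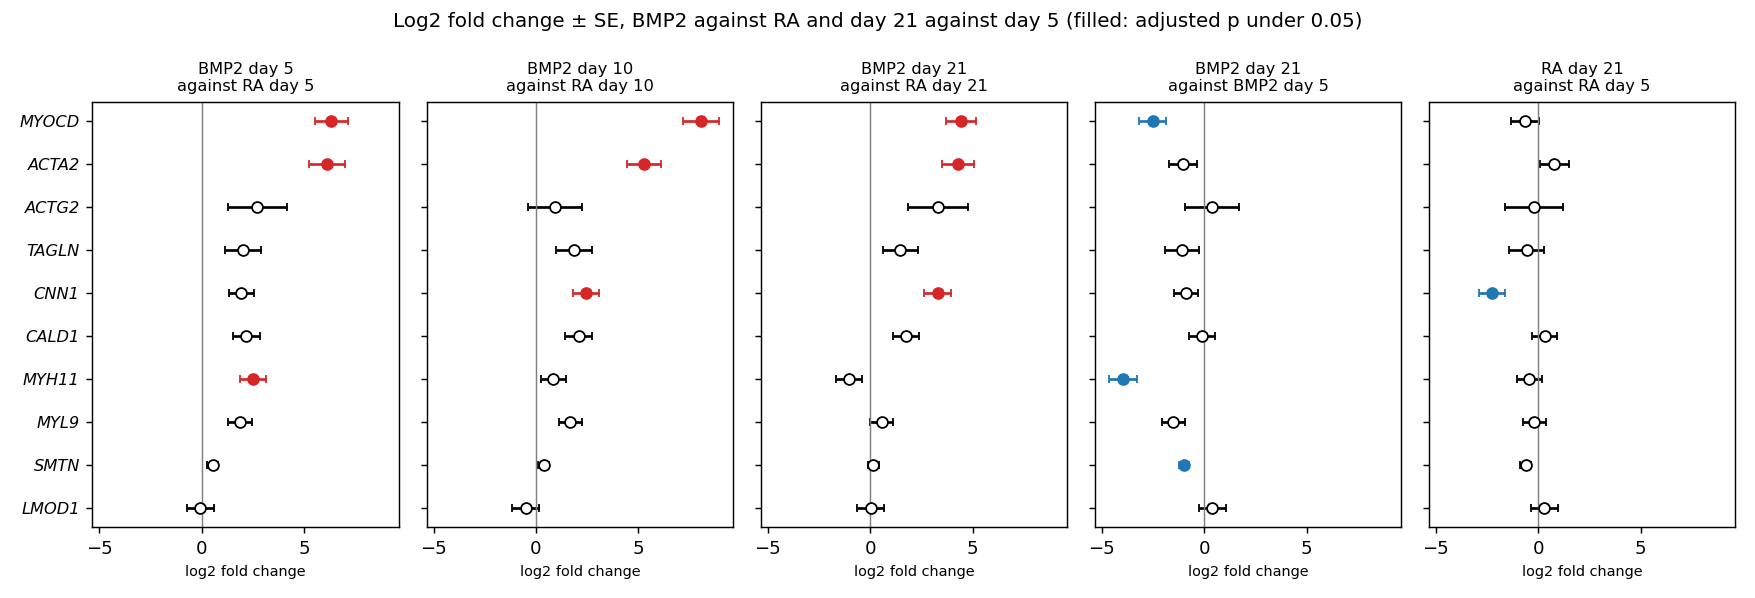
Log2 fold change ± SE of each gene for BMP2 against RA on days 5, 10 and 21, and for day 21 against day 5 within each treatment (edgeR, 14 libraries); filled points have an adjusted p under 0.05. MYOCD and ACTA2 are filled in the 3 panels of BMP2 against RA, and MYH11, MYOCD and SMTN are filled below 0 for BMP2 day 21 against day 5.

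Day 21 against day 5 shows what happened to the members as treatment went on. In BMP2, MYH11, MYOCD and SMTN fell, and no member rose. In RA, CNN1 fell and no member rose. MYH11 fell by 3.98 on the log2 scale in BMP2 (-3.98 ± 0.68, edgeR adjusted p = 0.013), MYOCD fell by 2.52 (-2.52 ± 0.66, adjusted p = 0.034) and SMTN fell by 0.98 (-0.98 ± 0.26, adjusted p = 0.035). So 3 of 10 members were lower and 0 higher, where 7.75% of all tested genes were called lower and 7.77% higher. ACTA2, at -1.03 ± 0.69, CALD1, at -0.10 ± 0.62, and LMOD1, at 0.39 ± 0.66, did not pass (adjusted p = 0.32, 0.94 and 0.72).

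CNN1 fell by 2.27 in RA (-2.27 ± 0.62, edgeR adjusted p = 0.022), so 1 of 10 members was lower and 0 higher, where 14.8% of all tested genes were called lower and 13.9% higher. CNN1 lost this call without RA day 5 replicate 1 (-1.26, adjusted p = 0.18) or either RA day 21 library, and SMTN gained one without RA day 5 replicate 2 (-0.98, adjusted p = 0.037). In BMP2, 0 members passed without BMP2 day 5 replicate 1 or either BMP2 day 21 library, and MYH11 alone passed without BMP2 day 5 replicate 2. SMTN also lost its call without either untreated or either RA day 21 library (adjusted p = 0.054 to 0.055), and MYL9 gained one without either RA day 5 library (adjusted p = 0.042 to 0.043), with DESeq2 (-1.50, adjusted p = 0.035) and in a fit of the 4 libraries compared (-1.51, adjusted p = 0.034). Without any 1 library the log2 value stayed between -4.40 and -3.44 for MYH11 and between -3.13 and -2.09 for MYOCD.

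Whether the change from day 5 to day 21 differed between the treatments was tested as an interaction, which was added after the data were seen, and MYH11 and MYOCD are singled out for their values. The change in BMP2 minus that in RA was -3.53 ± 0.88 on the log2 scale for MYH11 (edgeR adjusted p = 0.075, unadjusted p = 0.0025) and -1.87 ± 0.94 for MYOCD (adjusted p = 0.32, unadjusted p = 0.074). No member passed, where 1.64% of all tested genes were called in either direction, and MYH11 alone had an unadjusted p under 0.05. With DESeq2, MYH11 was called (-3.51, adjusted p = 0.0025), as it was without either or both of the BMP2 day 10 libraries (adjusted p = 0.0095 to 0.011). These fits still hold both libraries of each group in the interaction.

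The genes that SRF works with were taken as a list of 20, all tested. SRF itself was not called in any comparison. SRF was at 69.5 and 74.2 CPM in untreated cells and at 156 and 105 on BMP2 day 5 (0.86 ± 0.44, edgeR adjusted p = 0.17). The myocardin-related co-activators MRTFA and MRTFB rose on all 3 BMP2 days, by 1.07 ± 0.20 and 1.03 ± 0.13 on day 5, where MYOCD rose by 7.21. Of the 20, 11 rose and 0 fell on BMP2 day 5, 10 and 0 on day 10, and 10 and 1 on day 21, with median log2 fold changes of 1.05, 1.07 and 0.74. RA gave 3 and 0, 6 and 1, and 8 and 3 on days 5, 10 and 21, with medians of 0.39, 0.55 and 0.80. The background shares of all genes are those given above for each comparison.

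TGFB1I1, which encodes the SRF partner Hic-5, rose in BMP2 from a mean of 3.33 CPM to 68.2, 64.6 and 26.5 CPM and was higher than in RA on day 5 (4.11 ± 0.81, edgeR adjusted p = 0.012) and day 10 (3.13 ± 0.78, adjusted p = 0.032). PRDM6, a repressor gene of smooth muscle, was at 10.2 and 6.68 CPM on BMP2 day 5, 5.52 and 43.2 on day 10, and 52.9 and 41.3 on day 21, and was higher than in RA on day 10 (3.80 ± 1.05, adjusted p = 0.045) and day 21 (4.25 ± 1.06, adjusted p = 0.031). MEF2C and GATA6, transcription factor genes of heart and smooth muscle, rose in both treatments, GATA6 from 0.406 to 57.8 CPM in RA and to 20.8 CPM in BMP2 by day 21. MRTFB was the 1 gene of this list lower in BMP2 than in RA, on day 21 (-0.78 ± 0.13, adjusted p = 0.0063). KLF4, which opposes the contractile program in smooth muscle, fell on RA day 21 (-5.04 ± 0.93, adjusted p = 0.0019) and was called lower in BMP2 on day 21 as well.

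**Figure D4:**
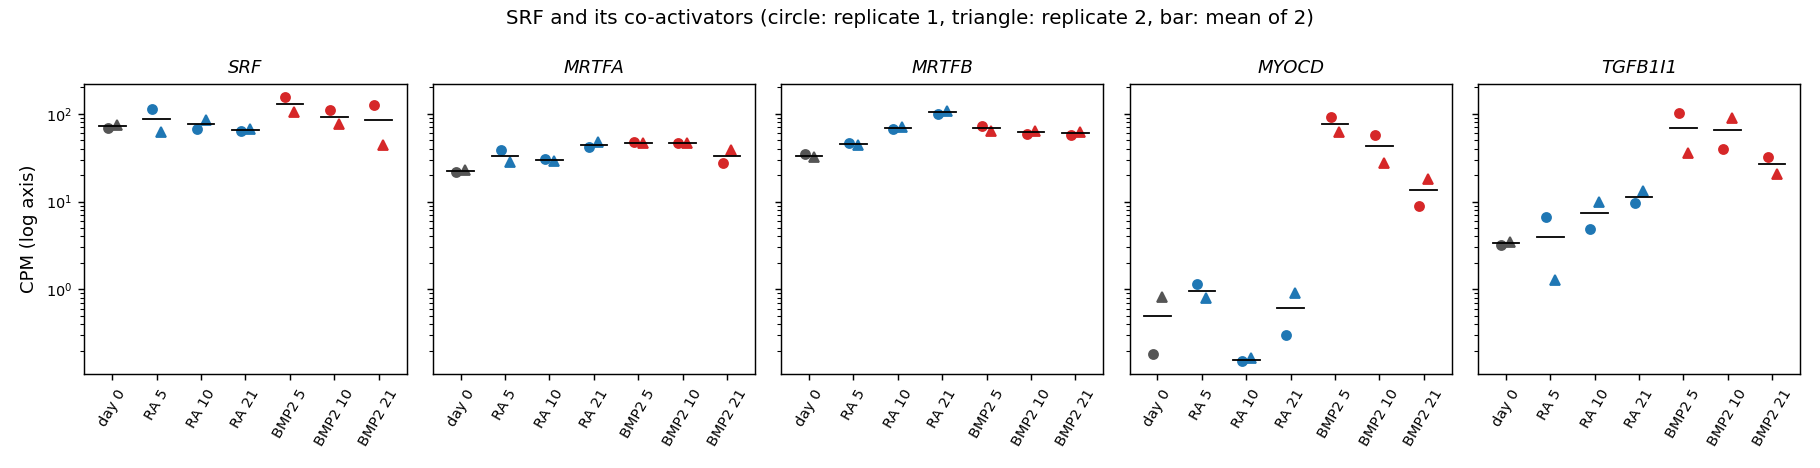
CPM (log axis) of SRF, MRTFA, MRTFB, MYOCD and TGFB1I1 in the 14 libraries, with untreated day 0 in grey, RA in blue and BMP2 in red; circles are replicate 1, triangles replicate 2, and bars the mean of 2. SRF spans 44 to 156 CPM over all libraries, while MYOCD spans 0.152 to 91.9 CPM.

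Other contractile genes were taken as a list of 26, all tested. In BMP2, 16 rose and 0 fell on day 5, 18 and 0 on day 10, and 13 and 0 on day 21, with median log2 fold changes of 1.56, 1.83 and 1.28. RA gave 2 and 1, 4 and 1, and 6 and 3, with medians of 0.53, 0.72 and 0.56. Of all tested genes, 15.9%, 19.8% and 25% were called higher in BMP2 on days 5, 10 and 21, and 13.4%, 16.4% and 22.1% lower. On the RA days the shares were 5.59%, 12.9% and 23.4% higher and 2.72%, 11.1% and 21.1% lower. The RA counts of higher genes lay near these shares. PGM5, which encodes a protein of adhesion sites, was at 0.0811 and 0.264 CPM in untreated cells and 34.5 and 48.2 CPM on BMP2 day 5, and was higher than in RA on all 3 days, by 7.65 ± 0.79 on day 5 (edgeR, adjusted p = 0.00096). TPM1, a tropomyosin gene, was higher in BMP2 than in RA on day 10 by 2.33 ± 0.40 (adjusted p = 0.0078), at means of 4239 and 841 CPM. ITGA8, an integrin gene, had no count in untreated cells and was at a mean of 3.99 CPM on BMP2 day 5, at least 168-fold higher, taking 3 counts over the untreated group as the floor. DES, the desmin gene, had means of 2.13 CPM in untreated cells and 1.6, 1.27 and 0.945 CPM in BMP2, and did not pass there.

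From BMP2 day 5 to day 21, 3 of these 26 genes rose (PDLIM3, SYNPO2 and MYLK4) and 2 fell (MYL6 and PDLIM7). Of all tested genes, 7.77% were called higher and 7.75% lower, so both counts lay near these shares. PDLIM3, which encodes a protein of actin anchoring sites, was at 3.29 and 2.11 CPM on BMP2 day 5, 2.61 and 51.8 on day 10, and 58.4 and 103 on day 21, and rose from day 5 to day 21 by 4.90 ± 1.11 (edgeR, adjusted p = 0.023). SYNPO2, which encodes the actin-bundling protein synaptopodin 2, rose over the same interval by 3.40 ± 0.73 (adjusted p = 0.02). The BMP2 day 10 libraries differed for PDLIM3 as they did for MYH11, in the opposite direction.

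Paralogs with wider expression were taken as a list of 15, of which 14 were tested. In BMP2, 9, 8 and 4 rose on days 5, 10 and 21 and 0, 0 and 1 fell, with medians of 1.24, 1.20 and 0.28. Of all tested genes, 15.9%, 19.8% and 25% were called higher on these days, and the day 21 count lay near its share. In RA, 0 rose on any day, where 5.59%, 12.9% and 23.4% of all tested genes were called higher. ACTB and ACTC1 fell on RA day 21, where 21.1% of all tested genes were called lower. ACTC1, the cardiac alpha actin, was at 5.41 and 17.6 CPM in untreated cells. ACTC1 in BMP2 was at 1765 and 272 CPM on day 5, 301 and 357 on day 10, and 20.9 and 19.4 on day 21. Its fall from day 5 to day 21 was -5.66 ± 1.16 (edgeR, adjusted p = 0.018), while ACTA2 over the same interval did not pass. MYH9 and MYH10, genes of nonmuscle myosin heavy chains, rose on all 3 BMP2 days, and MYH10 was higher than in RA on day 21 (1.36 ± 0.34, adjusted p = 0.03). MYH14, another such gene, was the 1 that fell on BMP2 day 21, from a mean of 6.82 CPM in untreated cells to 1.71 CPM.

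Markers of other cell types changed in the same libraries, and their part in the members' changes was not tested. The 11 cardiac markers summed to 41.4 to 103 CPM in untreated cells, 389 to 2042 CPM on BMP2 day 5 and 347 to 388 CPM on day 21, with MYL2 at 0 on BMP2 day 5 and TNNI3 at 0 on day 21. A few genes carried these sums, with ACTC1 at 1765 and 272 CPM on BMP2 day 5, and TNNT2 at 204 and 172 CPM and GATA4 at 121 and 122 CPM on day 21. Of the 11, 5 rose and 1 fell on BMP2 day 5, and on day 21, 2 rose and 4 fell (TBX5, TNNI3, MYH7 and NPPA), with a median log2 fold change of -0.51. Of all tested genes, 15.9% were called higher and 13.4% lower on BMP2 day 5, and 25% and 22.1% on day 21. The 9 fibroblast and mesenchyme markers summed to 279 to 291 CPM in untreated cells, 2003 to 3669 CPM on BMP2 day 5, 1893 to 14372 on day 10 and 32565 to 33695 on day 21, and to 6035 to 6082 CPM on RA day 21. The higher BMP2 day 10 sum came with the library in which MYH11 was at 1.52 CPM. COL3A1 carried the BMP2 day 21 sum, at 21948 and 19563 CPM. THY1 carried the untreated sum, at 227 and 218 CPM, and was called lower in every treated group. Of the 9, 5 rose and 1 fell on BMP2 day 5, and 7 rose and 1 fell on day 21. MYOD1 and MYF6, regulator genes of skeletal muscle, were at means of 0.0684 and 0.0608 CPM in untreated cells and at 0 in all BMP2 libraries. MYOG, another such gene, had means of 0.0203 CPM in untreated cells and 0.147 CPM on BMP2 day 21. MYOG was at 0.294 CPM in replicate 2 of BMP2 day 21 and at 0 in every other BMP2 library. MYOD1, MYF6 and MYOG did not pass the filter on low counts, and MYF5 was not in the table. The 7 of 8 skeletal markers in the table summed to 9.53 to 11 CPM in untreated cells. In BMP2 they summed to 14.3 to 21.8 CPM on day 5, 10.1 to 12.6 on day 10 and 3.78 to 3.84 on day 21. ACTA1 was the 1 called higher on BMP2 day 5, at means of 1.36 CPM in untreated cells and 13.9 CPM there. CKM and MYH3 were called lower on BMP2 day 21. The 6 pericyte markers summed to 199 to 241 CPM in untreated cells, 1102 to 1522 on BMP2 day 5 and 2188 to 2633 on RA day 21, where MYOCD was below 1 CPM. RGS5 carried the RA day 21 sum, at 1889 and 2313 CPM. Of the 6, 3 rose and 0 fell on RA day 21, where 23.4% of all tested genes were called higher and 21.1% lower. On BMP2 day 5, 4 rose and 0 fell.

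Of 8 amnion and trophoblast markers 7 were in the table, and they summed to 14.2 to 16.9 CPM in untreated cells, 815 to 965 CPM on BMP2 day 5 and 193 to 266 CPM on day 21. HAND1, at 484 and 566 CPM, and ISL1, at 197 and 218 CPM, carried the BMP2 day 5 sum. Of the 6 tested, 4 rose there (ISL1, TFAP2A, GATA3 and HAND1) and 0 fell. CGA and GCM1 were at means of 0.11 and 0.0157 CPM on BMP2 day 5, and KRT7 was not called. The 4 epithelial markers summed to 1477 to 1736 CPM in untreated cells and 4826 to 5523 CPM on BMP2 day 5. KRT8 carried both sums, at means of 1101 and 4073 CPM, and was the 1 marker of the 4 called there. EPCAM was at means of 204 and 177 CPM, and was called lower on BMP2 day 21, at 10.5 CPM. The 5 pluripotent cell markers fell from 4418 to 5011 CPM in untreated cells to 15 to 22.3 CPM on BMP2 day 21 and 22.5 to 24.8 CPM on RA day 21. The 5 neuron markers in the table reached 674 to 1034 CPM on RA day 10, against 80.6 to 117 CPM on BMP2 day 10. NEFM carried the RA day 10 sum, at 718 and 369 CPM. Of the 5, 4 rose and 0 fell on RA day 10, where 12.9% of all tested genes were called higher and 11.1% lower. SYP did not pass there, at means of 11 CPM in untreated cells and 5.75 CPM on RA day 10. SYP was called lower on RA days 5 and 21. The 4 endothelial markers in the table summed to 95.5 to 153 CPM in untreated cells and 217 to 364 CPM on BMP2 day 21. KDR, at 302 and 188 CPM, carried the day 21 sum and was the 1 endothelial marker called there, while CDH5 was at means of 0.356 and 0.0411 CPM and TEK at 76.7 and 42 CPM in untreated cells and BMP2 day 21, and the list's median log2 fold change was -0.02.

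Genes outside the 10 members were ranked by their likeness to 3 of the members across the 14 libraries. Likeness was Pearson's r of log2(CPM + 1), as a description, since libraries of a group share their treatment. Only tested genes above a floor on CPM were ranked, and the members were not compared with each other. Among the ranked genes, the closest to MYOCD was TBX20, a heart transcription factor gene (r = 0.978). TBX20 had mean levels of 12, 9.88 and 5.24 CPM in BMP2 and 0.105, 0.0679 and 0 CPM in RA on days 5, 10 and 21. RAB30, DOK4, PMP22 and TSC22D2 followed, at r from 0.970 to 0.967. The ranked gene closest to ACTA2 was CAST, which encodes calpastatin (r = 0.985), followed by PRSS23, COPB1, AGAP3 and TUFT1. For ACTG2 the highest value was lower, at r = 0.895 with FARP2, followed by ECM1, MYO9B, SRGAP1 and DERL2. No member other than these 3 was examined in this way.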

How the data were processed

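Per the labels, total RNA of NT2 cells was sequenced in 14 libraries. The authors deposited raw read counts per Ensembl gene, and RPKM of the same genes. STAR, featureCounts, DESeq2 and hg19 appear in the submitters' processing notes, with no version or role. Of counts from 1 to 19, 66% to 73.5% per library were even, so both reads of a pair appear to be counted. For the members, lengths implied by the authors' RPKM closely match whole gene spans, except for MYL9, at 8342 bases against a span of 9964. RPKM therefore served in alternative tests and for ranks per length only, and counts may include intron reads. Symbols came from a list of gene names, which held 25214 of 25952 identifiers, and for 58 more from GENCODE release 29, leaving 680 unnamed.

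Groups came from the sample titles. The quasi-likelihood F test of edgeR 4.0.16 (R 4.3.3) was run on the counts of all 14 libraries, each group with its own mean. TMM factors ran from 0.918 to 1.15, and filterByExpr at its minimum count of 10 kept 19142 genes with 99.99% of the counts. Residual degrees of freedom were 7, prior ones 3.08, and the biological coefficient of variation was 0.368. A gene was called at a Benjamini-Hochberg adjusted p below 0.05 over all tested genes, in each of 11 comparisons. An SE is a log2 fold change over the root of its F. Whether both libraries in a group came from separate cultures is not stated in the labels, and p-values then measure only the spread between these samples, which may be technical. With 2 against 2 libraries the smallest two-sided p of an exact permutation test is 0.333, and none is given.

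The genes, lists, naming rule and tests were chosen with earlier results of these data known. All 10 members are named, and of each other list up to 4 of the genes with the largest called changes per comparison. Also named are SRF, MRTFA, MYL6, MYL2, MYOD1, MYF6, MYOG, MYF5, NPPA, CGA, GCM1 and genes that overlap members. The genes outside the members that were most like MYOCD, ACTA2 and ACTG2 are named too. SRF and MRTFA were named for their role. MYL6, MYL2, MYOD1, MYF6, MYOG, NPPA, CGA and GCM1 were named after their values were seen, and MYF5 because it was absent. Alternatives were RLE factors, no filter on low counts, at least 1 CPM in 2 libraries, a replicate block, only the 4 libraries compared, each library left out, both BMP2 day 10 libraries left out, DESeq2 1.42.0, and limma 3.58.1 on the authors' RPKM as log2(RPKM + 1) or log2(RPKM + 0.1), for 11641 genes reaching 0.5 RPKM in 2 libraries. The interaction of time and treatment, and its use to pick results for a closer look in place of the BMP2 against RA comparisons themselves, were chosen after the data were seen. The edgeR fit was tested on simulated data. Tables and figures used Python 3.11.15, NumPy 2.4.6, pandas 2.3.3, SciPy 1.17.1 and matplotlib 3.10.9.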

Additional observations from a re-analysis of the deposited data

How the results depend on the processing

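Of the 46 comparisons of a single gene that passed the test, 14 kept direction and call in every alternative run, among them MYOCD and ACTA2 on BMP2 days 5 and 10 against day 0 and on BMP2 day 5 against RA. Over 2682 alternative values of single genes, 54 reversed in sign, none of them for a called change. Without 1 library the number of members called ran from 1 to 3 on RA day 5, 1 to 4 on RA days 10 and 21, 5 to 9 on BMP2 days 5 and 10 and 4 to 7 on BMP2 day 21. It ran from 2 to 6, 1 to 4 and 0 to 3 for BMP2 against RA on days 5, 10 and 21, 0 to 2 for RA day 21 against day 5, 0 to 4 for BMP2 day 21 against day 5, and 0 to 1 for the interaction. There a lone library is taken to vary as the other groups do. With only the 4 libraries compared, 5 members were called on RA day 21, 5 on BMP2 day 10, and 0 on day 10 and 7 on day 21 for BMP2 against RA. Day 5 of BMP2 against RA gave 6 calls with no filter, without both BMP2 day 10 libraries and with DESeq2, and 5 with limma on either RPKM scale. Day 10 gave 5 with no filter and with DESeq2, and day 21 gave 5 with DESeq2. limma gave 0 calls for RA day 21 against day 5 on either scale, and 0 on RA day 5 on log2(RPKM + 1). The interaction had 1 call, MYH11, with no filter (adjusted p = 0.039), without both BMP2 day 10 libraries and with DESeq2. The cause of these shifts was not tested.

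Titles number the libraries 1 and 2 in each group, and RA day 21 descriptions disagree. Deviations from group means correlated between same-numbered libraries at -0.342 to 0.146, median 0.00388, over 21 pairs of groups, 3 of them over 0.1, so the numbers were not taken as a pairing. With the replicate block SMTN on RA day 5 lost its call (adjusted p = 0.061), MYH11 on BMP2 day 10 gained one (0.042), and LMOD1 on BMP2 day 21 against RA day 21 was at -0.20 and in the interaction at -0.13. No other member's call changed.

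The reversed values, on the log2 scale, belong to the following genes, with the lowest and highest value when 1 library was left out. Against day 0, TAGLN ran from -0.74 to 2.23, CNN1 from -0.25 to 1.36, CALD1 from -0.40 to 1.20 and ACTG2 from -1.93 to 3.56 on RA day 5. CNN1 ran from -1.15 to 0.00 and CALD1 from -0.28 to 1.28 on RA day 10, and MYOCD from -0.80 to 1.73 and ACTG2 from -1.79 to 3.34 on RA day 21. For BMP2 against RA, LMOD1 ran from -0.90 to 0.77 on day 5 and -0.97 to 0.62 on day 21, and MYH11 from -0.54 to 1.54 and ACTG2 from -1.82 to 1.81 on day 10. For RA day 21 against day 5, TAGLN ran from -1.40 to 1.46, MYH11 from -0.85 to 0.06, MYL9 from -0.90 to 1.12, LMOD1 from -0.26 to 1.14, CALD1 from -0.30 to 1.30 and ACTG2 from -1.10 to 1.07. For BMP2 day 21 against day 5, ACTA2 ran from -1.77 to 0.44, LMOD1 from -0.59 to 1.22, CALD1 from -0.62 to 0.34 and ACTG2 from -0.31 to 1.31. In the interaction, TAGLN ran from -2.54 to 0.30, LMOD1 from -0.89 to 0.92, CALD1 from -1.40 to 0.18 and ACTG2 from -0.69 to 1.52. With limma on log2(RPKM + 1) and log2(RPKM + 0.1), BMP2 day 21 against RA gave -0.02 and -0.05 for SMTN and -0.08 and -0.28 for LMOD1. RA day 21 against day 5 gave 0.06 and 0.10 for TAGLN and 0.15 and 0.20 for MYL9. The interaction gave -0.04 and -0.17 for LMOD1, and -0.09 for CNN1 with an offset of 1.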
